A study of Homo sapiens with 148 samples.

Results

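The 10 genes described here are 6 ligands of the fibroblast growth factor (FGF) family, FGF2, FGF4, FGF8, FGF10, FGF17 and FGF19, and the 4 FGF receptor tyrosine kinases, FGFR1, FGFR2, FGFR3 and FGFR4. Their rows were found by gene name, and they are 10 of the 49085 names in a table of gene expression in human embryonic stem cells (hESCs) and their pancreatic derivatives. All 10 have a single entry in the table, and no member is listed at 0 in any stage. The members' levels in each of the 6 stages are followed along the differentiation, together with the genes that carry, restrain or report FGF signaling.

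RNA was sequenced from the wild-type H9 hESC line, an established line widely used for directed differentiation, and from cells made from it. The 6 stages were undifferentiated hESCs, definitive endoderm (DE, day 4), primitive gut tube-like cells (PGT, day 7), pancreatic progenitors (PP, day 14), islet-like organoids with β cells made from the stem cells (SC-β, day 35) and a stage named PH. The labels place PH within the pancreatic differentiation and give it no day, and the meaning of the letters is not given in the sources used here. Of 148 samples, 12 are RNA-seq, with 2 to a stage; the other assays were not analysed here.

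Each value is the authors' mean over the replicates of a stage, in TPM, a unit of transcript abundance that corrects for transcript length and gives every stage the same sum. The replicates' own values and the read counts are not in this table, so no value has an error, no difference was tested, and the depth behind each value is unknown. Ratios between stages are log2((TPM + 1) / (TPM + 1)), and a gene is called higher or lower from a difference of 2-fold (1 on the log2 scale). Successive comparisons share a column of means and are not independent of each other. Which neighbors in an order of levels differ beyond the spread of replicates cannot be told from single means.

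FGFs are secreted proteins that bind their receptors together with heparan sulfate, a sugar chain on cell surface proteoglycans. The receptors signal mainly through the RAS and ERK kinases, and this signal switches on its own inhibitors, the Sprouty, SPRED and DUSP proteins, as well as ETV transcription factors. FGF2 keeps human pluripotent cells undifferentiated in culture, FGF4 and FGF8 act in the early embryo, and FGF10 from the pancreatic mesenchyme acts on FGFR2 in the pancreatic epithelium. The culture itself supplied FGF protein: hESC medium of the type used contains FGF2, and keratinocyte growth factor (KGF, the FGF7 protein, which binds an epithelial form of FGFR2) was fed from day 4 to day 13. DE cells were collected on the first day of KGF feeding, whether before or after the feed is not stated, and a TPM value tells nothing of the added protein.

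The members were spread over the genome, with the exception of a run of ligand genes on chromosome 11. On GRCh38 (the same build as hg38), FGF19 lies at chr11:69698238-69704022 and FGF4 at chr11:69771022-69775341, both on the minus strand and 66999 bases apart. FGF3, a ligand that is no member, follows at chr11:69809968-69819416, 34626 bases beyond FGF4 and on the same strand. FGF2 lies at chr4:122826682-122898236 and FGFR3 at chr4:1793293-1808872, both on the plus strand, FGF10 at chr5:44300247-44389706 on the minus strand, and FGFR4 at chr5:177086905-177098144 on the plus strand. FGF8 lies at chr10:101770109-101780371 and FGFR2 at chr10:121478332-121598458, both on the minus strand. FGF17 lies at chr8:22042398-22048809 on the plus strand and FGFR1 at chr8:38400215-38468834 on the minus strand.

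The stage labels were checked against marker genes. The 6 endoderm markers were all called higher in DE than in hESCs, and their summed TPM was 27.1 in hESCs, 753 at DE, 178 at PGT, 59.0 at PP, 109 at PH and 42.3 at SC-β. Of the 6 pancreatic progenitor markers, 5 were called higher in PP than in PGT and none lower. Their summed TPM in PP was 56.5, with SOX9 at 23.7, ONECUT1 at 20.6 and PDX1, the defining factor of the pancreatic bud, at 3.17. The 6 endocrine markers summed to 3919.4 TPM in SC-β, from 244 TPM in PP. In SC-β the largest were GCG (glucagon) at 2792.7 TPM, CHGA at 805 TPM and INS (insulin) at 298 TPM. Most of the PP sum was CHGA, at 215 TPM. The PH sum of the endoderm markers is nearly all CXCR4, at 106 TPM in PH and 23.0 TPM in PP; SOX17 and EOMES were listed at 0 in PH, and FOXA2, GATA4 and GATA6 were called lower than in PP. Markers of other cell types also differed between stages: the 10 mesenchymal markers summed to 143, 80.2, 104 and 190 TPM from hESCs to PP, 1020.8 TPM in PH and 1947.3 TPM in SC-β, and the 10 neural progenitor markers to 31.8 to 135 TPM from hESCs to PP, 658 TPM in PH and 296 TPM in SC-β. The 6 hepatic markers summed to 34.6 TPM in DE, 1337.0 TPM in PGT and 1470.3 TPM in SC-β, and all 6 were called higher in PGT than in DE. Of the 5 endothelial markers, VWF was called higher in DE than in hESCs (0.465 and 191 TPM) and KDR and TEK lower, while PECAM1 and CDH5 were at 0.430 and 0.0984 TPM in DE. Structural RNAs took 31.8% to 50.9% of the TPM of a stage, the highest share in PH. The names at 1 TPM or more in every stage shifted together by a median of 0.48 (log2) in DE against hESCs, -0.15 in PGT against DE, -0.09 in PP against PGT, 0.27 in SC-β against PP and -0.22 in PH against PP. In such bulk samples, fewer cells of a type and less RNA per cell cannot be told apart.

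Promoter windows run from 250 bases before to 50 bases after an annotated start. In RefSeq (GRCh38.p14) they were found for 5 of the 10 members, FGF2, FGF10, FGFR2, FGFR3 and FGFR4. None was found for FGF4, FGF8 and FGF19. FGF17 and FGFR1 were left out of the search, so whether they have such windows was not examined. The first-listed windows are shown of the 3 receptors whose share of the receptor sum differed most between stages, and of FGF10, the leading ligand in PGT. They are written 5′ to 3′ on the gene's own strand. Capitals mark GC boxes (GGGCGG or its reverse complement CCGCCC) in the receptors and the forkhead core (TGTTTAC, reverse complement GTAAACA) in FGF10.
FGFR3, chr4:1793043-1793342, plus strand: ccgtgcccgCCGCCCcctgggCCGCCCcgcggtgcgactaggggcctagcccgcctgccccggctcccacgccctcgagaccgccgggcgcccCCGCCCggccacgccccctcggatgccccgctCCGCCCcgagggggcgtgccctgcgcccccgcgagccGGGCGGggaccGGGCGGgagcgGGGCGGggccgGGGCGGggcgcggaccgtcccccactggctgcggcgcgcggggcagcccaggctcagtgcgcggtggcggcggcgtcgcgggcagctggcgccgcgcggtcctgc
FGFR4, chr5:177086665-177086964, plus strand: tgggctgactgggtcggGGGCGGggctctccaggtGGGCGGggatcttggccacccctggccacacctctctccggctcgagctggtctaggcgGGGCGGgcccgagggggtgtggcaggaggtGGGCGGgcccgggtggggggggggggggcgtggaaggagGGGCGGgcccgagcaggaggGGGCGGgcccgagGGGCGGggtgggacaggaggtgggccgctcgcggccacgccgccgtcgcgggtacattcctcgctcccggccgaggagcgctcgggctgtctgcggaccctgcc
FGFR2, chr10:121598395-121598694, minus strand: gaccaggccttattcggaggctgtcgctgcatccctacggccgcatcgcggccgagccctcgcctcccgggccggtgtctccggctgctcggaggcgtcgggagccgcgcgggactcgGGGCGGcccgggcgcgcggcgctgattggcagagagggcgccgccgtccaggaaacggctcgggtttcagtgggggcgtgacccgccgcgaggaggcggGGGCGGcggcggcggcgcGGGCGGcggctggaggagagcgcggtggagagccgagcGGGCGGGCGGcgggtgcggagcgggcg
FGF10, chr5:44389371-44389670, minus strand: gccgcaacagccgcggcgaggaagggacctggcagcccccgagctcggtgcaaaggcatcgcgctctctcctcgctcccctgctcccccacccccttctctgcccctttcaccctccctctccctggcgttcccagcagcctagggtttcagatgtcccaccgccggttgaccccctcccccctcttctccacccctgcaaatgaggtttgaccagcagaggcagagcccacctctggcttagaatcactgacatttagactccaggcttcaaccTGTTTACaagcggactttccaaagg

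The 3 receptor windows were rich in CpG and in GC boxes, whereas the FGF10 window was close to the typical promoter. The FGFR3 window had 51 CpG dinucleotides, a GC content of 86.3% and 8 GC boxes. The FGFR4 window had 30 CpG and 7 GC boxes at 78.7% GC, and the FGFR2 window 52 CpG and 5 GC boxes at 79.3% GC. Over 35116 promoter windows of the same length the median was 14 CpG and 58.7% GC, 45.0% held a GC box, 5.14% held at least 5 and 1.50% held at least 7. The FGF10 window had 13 CpG, 62.3% GC, no GC box and 1 forkhead core, letters that 3.42% of windows hold. None of the 4 windows held a match to the TATA box core (TATAAA, 11.5% of windows) or the GATA core (AGATAA, 10.3%) on either strand. Overlapping matches were each counted. FGFR2 and FGFR4 have further annotated starts, and the table does not separate them. The windows of these further starts were unlike the ones shown, with 2 to 8 CpG and at most 1 GC box. The second-listed windows of FGFR2 and FGFR4 each held the GATA core. A match is a run of letters and no evidence that a factor binds there.

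FGF2, the ligand that supports pluripotency, was highest in hESCs. Its level was 56.6 TPM in hESCs, 6.82 at DE, 3.91 at PGT, 7.45 at PP, 6.62 at PH and 6.04 at SC-β. The hESC value thus stood apart, and the other 5 stages lay between 3.91 and 7.45 TPM. The log2 ratio was -2.88 in DE against hESCs, and no later comparison reached 2-fold. FGF2 shares 804 exon bases with NUDT6 on the opposite strand, a gene listed at 3.90 to 6.57 TPM in the 6 stages, close to the levels of FGF2 outside hESCs. The library kit named in the labels is stranded, and whether strand was used in the counting is not given in the sources used here.

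FGF4, a ligand of the early embryo and a classic gene of pluripotent cells, was low at every stage. It was at 4.42 TPM in hESCs, 1.38 at DE, 0.0427 at PGT, 0.931 at PP, 0.0460 at PH and 0.00602 at SC-β. It was called lower in DE (-1.19) and again in PGT (-1.19). At such levels a ratio rests on the pseudocount of 1 TPM: with 0.1 TPM the ratio of PP to PGT was 2.85 in place of 0.89.

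FGF19, an intestinal and embryonic hormone that acts with a Klotho co-receptor, was low at every stage and highest in hESCs. It was at 5.72 TPM in hESCs, 0.224 at DE, 0.0601 at PGT, 2.68 at PP, 0.853 at PH and 2.21 at SC-β. It was called lower in DE (-2.46) and higher in PP (1.80). Its neighbors on chromosome 11 were listed higher in PP than in PGT too, FGF4 as above and FGF3 at 0 in PGT and 1.16 TPM in PP. FGF3 was listed at 0 in hESCs, DE and PH as well. These 3 genes were at or below 5.72 TPM throughout.

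FGF8 and FGF17 belong to one ligand subfamily, which patterns the gastrula and the midbrain. FGF17 had the largest log2 ratio of any member in the 5 comparisons. It was at 12.5 TPM in hESCs, 156 at DE, 1.42 at PGT, 2.23 at PP, 2.21 at PH and 1.16 at SC-β. Its log2 ratio was 3.54 in DE against hESCs and -6.02 in PGT against DE, and its DE value ranked 582 among 21619 names at 1 TPM or more (the top 2.69%). The 6 endoderm markers were all called higher in DE too; their part in the FGF17 value was not tested.

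FGF8 followed another course, with high values in PP as well as in the first stages. It was at 13.5 TPM in hESCs, 20.4 at DE, 1.39 at PGT, 25.5 at PP, 0.421 at PH and 1.66 at SC-β. FGF8 was called lower in PGT (-3.16), as FGF17 was. It was then called higher in PP (3.47), lower in SC-β (-3.32) and lower in PH (-4.22), so its stages fell into 3 at 13.5 TPM or more and 3 at 1.66 TPM or less. FGF17 did not reach 2-fold in PP, with a ratio of 0.42. In PP against PGT, 5 of the 6 pancreatic progenitor markers and 5 of the 6 endocrine markers were called higher, and none lower. Of the 10 neural progenitor markers 5 were called higher and none lower, and of the 10 mesenchymal markers 5 higher and 1 lower. The part of any of these lists in the FGF8 value was not tested.

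FGF10, the mesenchymal ligand of pancreatic and lung budding, was low in hESCs and DE and highest in PGT. It was at 0.646 TPM in hESCs, 0.625 at DE, 18.5 at PGT, 7.56 at PP, 0.255 at PH and 7.21 at SC-β. The log2 ratio was 3.58 in PGT against DE, -1.19 in PP against PGT, -0.06 in SC-β against PP and -2.77 in PH against PP. PP and SC-β thus had nearly the same level, between the PGT peak and the low stages. All 6 hepatic markers were called higher in PGT against DE, at a median log2 ratio of 4.98. Of the 10 mesenchymal markers, 2 were called higher and 2 lower in the same comparison, and in PH, where FGF10 was lowest, 9 of 10 were called higher than in PP; the part of either list in the FGF10 values was not tested. An antisense gene, FGF10-AS1, shares 182 exon bases with FGF10 and was listed at 0.333 TPM in PGT and at most 1.44 TPM elsewhere.

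**Figure D1:**
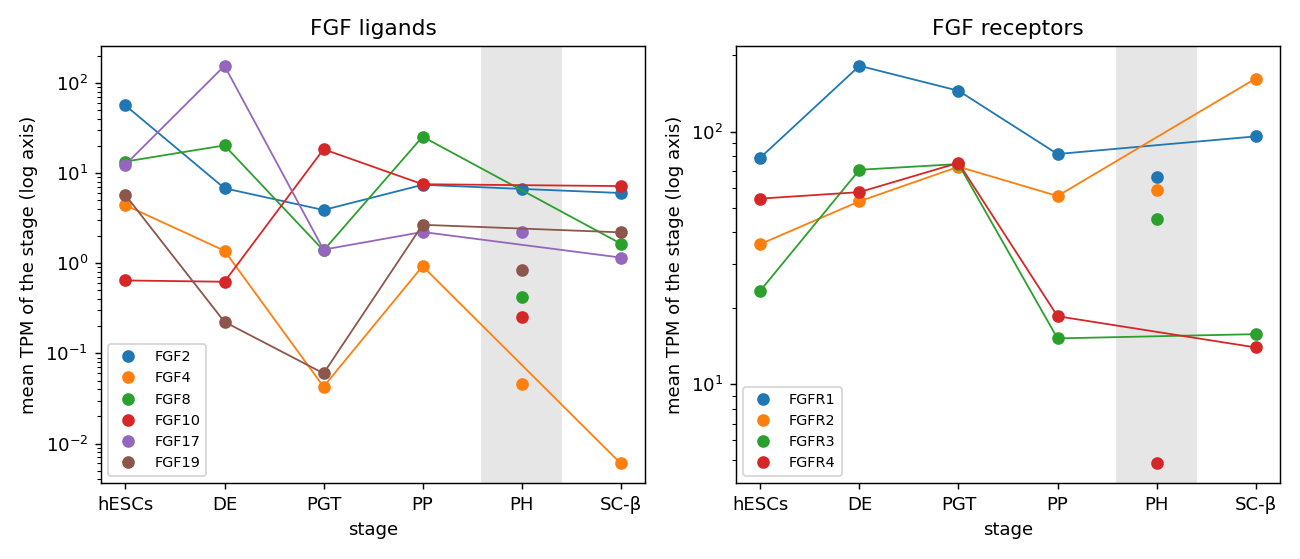
TPM of the 6 ligands and 4 receptors in each stage, on a log axis, 1 point per stage and member, each the authors' mean with no error. Lines join hESCs, DE, PGT, PP and SC-β; PH, which has no day, is shown unjoined in the gray band. FGF17 peaks in DE at 156 TPM, FGF10 in PGT at 18.5 TPM and FGFR2 in SC-β at 162 TPM.

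The leading ligand differed from stage to stage. The ligand of highest TPM was FGF2 in hESCs (60.6% of the 6 ligands' sum), FGF17 in DE (84.2%), FGF10 in PGT (73.1%), FGF8 in PP (55.0%), FGF2 in PH (63.6%) and FGF10 in SC-β (39.4%). The sum itself was 93.4 TPM in hESCs, 186 at DE, 25.3 at PGT, 46.4 at PP, 10.4 at PH and 18.3 at SC-β. The ligands thus had their highest sum in DE and their lowest in PH, and no ligand reached 10 TPM in PH or SC-β.

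The receptors were expressed at every stage. FGFR1, the broadly expressed receptor and the main one for FGF2, was at 78.9 TPM in hESCs, 182 at DE, 145 at PGT, 81.5 at PP, 66.0 at PH and 95.7 at SC-β. It was called higher in DE (1.20) and in no other comparison, and it was the 1 member of the 10 whose highest and lowest stages differed by less than 4-fold. The DE call ended, at 0.72, when stages were rescaled by their median ratio. LETM2, listed at 1.18 to 9.47 TPM, shares 138 exon bases with FGFR1 on the opposite strand, and a noncoding gene with no symbol in the annotation shares 387.

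FGFR2, whose epithelial form receives KGF and FGF10, was highest in SC-β. It was at 35.9 TPM in hESCs, 53.0 at DE, 72.6 at PGT, 55.6 at PP, 58.6 at PH and 162 at SC-β. The 5 other stages lay between 35.9 and 72.6 TPM, and none of the other 4 comparisons reached 2-fold. The ratio of SC-β to PP was 1.53, and FGFR2 then ranked 439 among 24571 names (the top 1.79%). In SC-β, 9 of the 10 mesenchymal, 4 of the 6 endocrine and 2 of the 6 hepatic markers were called higher than in PP, and none lower. The hepatic markers had their highest sum in SC-β, 1470.3 TPM, and nearly as high a sum in PGT, 1337.0 TPM. The part of these lists in the FGFR2 value was not tested. The epithelial and mesenchymal forms of FGFR2 are not separated in the table.

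FGFR3, a receptor known for limiting growth of cartilage, was at 23.5 TPM in hESCs, 70.6 at DE, 74.4 at PGT, 15.2 at PP, 44.9 at PH and 15.8 at SC-β. DE and PGT were the highest stages and PP and SC-β the lowest. The ratio was 1.55 in DE against hESCs, -2.22 in PP against PGT and 1.50 in PH against PP. FGFR3 was the only member called higher in PH than in PP, where 9 of the 10 neural progenitor markers and 9 of the 10 mesenchymal markers were called higher as well; their part in the FGFR3 value was not tested.

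FGFR4, the receptor that serves FGF19 in liver, was at 54.3 TPM in hESCs, 57.6 at DE, 75.2 at PGT, 18.6 at PP, 4.87 at PH and 14.04 at SC-β. Its 3 early stages were all above its 3 other stages. The ratio was -1.96 in PP against PGT and -1.74 in PH against PP. From PGT to PP, FGFR3 and FGFR4 were therefore both called lower, while FGFR1 (-0.83) and FGFR2 (-0.38) did not reach 2-fold. In PH, FGFR3 and FGFR4 stood on opposite sides of PP.

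**Figure D2:**
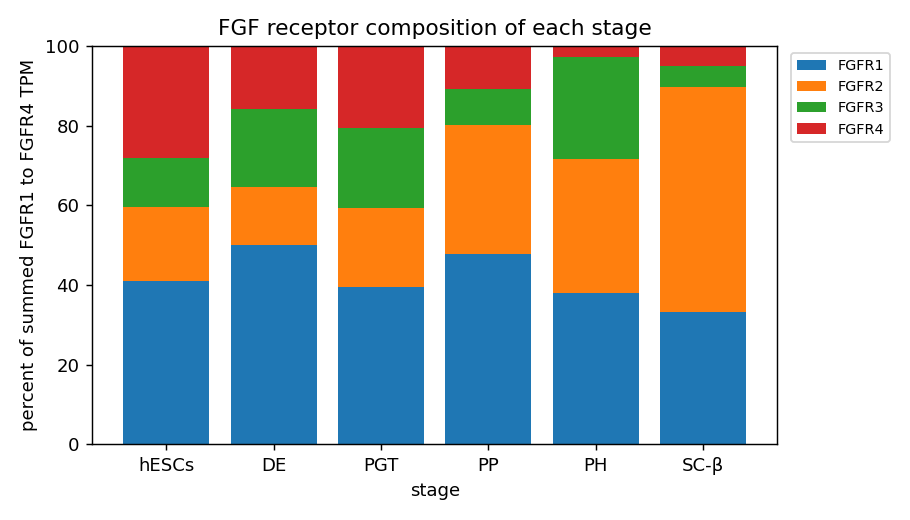
Share of each receptor in the summed TPM of FGFR1 to FGFR4, in percent, for each stage; every bar is made of the authors' means. The FGFR2 share is 56.3% in SC-β and 14.6% in DE, and the FGFR4 share is 28.2% in hESCs and 2.79% in PH.

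The make-up of the receptor pool differed between stages whose sums were alike. The 4 receptors summed to 193 TPM in hESCs, 363 at DE, 367 at PGT, 171 at PP, 174 at PH and 287 at SC-β. FGFR1 took the largest share in every stage from hESCs to PH, from 37.9% in PH to 50.1% in DE, and 33.3% in SC-β. FGFR2 took 14.6% to 19.8% in hESCs, DE and PGT, 32.5% in PP, 33.6% in PH and 56.3% in SC-β. PP and PH had nearly the same sum and FGFR2 share, and differed in FGFR3 (8.89% in PP, 25.7% in PH) and FGFR4 (10.9% in PP, 2.79% in PH).

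Counted over the 10 members, DE against hESCs had 3 called higher (FGF17, FGFR1 and FGFR3), where 22.5% of the 28202 names at 1 TPM or more in some stage were called higher. In the same comparison 3 members were called lower (FGF2, FGF4 and FGF19), where 4.43% of names were. PGT against DE had 1 member higher (FGF10, with 4.00% of names higher) and 3 lower (FGF4, FGF8 and FGF17, with 8.56% of names lower). The median log2 ratio of the members was 0.32 in DE against hESCs and -0.27 in PGT against DE, against 0.44 and -0.14 over all names.

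In PP against PGT, 2 members were higher (FGF8 and FGF19, with 4.77% of names higher) and 3 were lower (FGF10, FGFR3 and FGFR4, with 5.65% of names lower), at a median of 0.02 against -0.06 over all names. SC-β against PP had 1 member higher (FGFR2), where 18.5% of names were, and 1 lower (FGF8), where 1.63% of names were; the medians were -0.23 and 0.39. PH against PP had 1 member higher (FGFR3, with 8.94% of names higher) and 3 lower (FGF8, FGF10 and FGFR4, with 9.97% of names lower), at a median of -0.59 against -0.09. Members called lower were a larger share than the background in each of the 5 comparisons. Members called higher were near the background share in DE against hESCs (3 of 10, with 22.5% of names) and in PH against PP. Their share was larger than the background in PGT against DE and PP against PGT, and smaller in SC-β against PP. With 10 genes each share moves by steps of 1 gene.

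**Figure D3:**
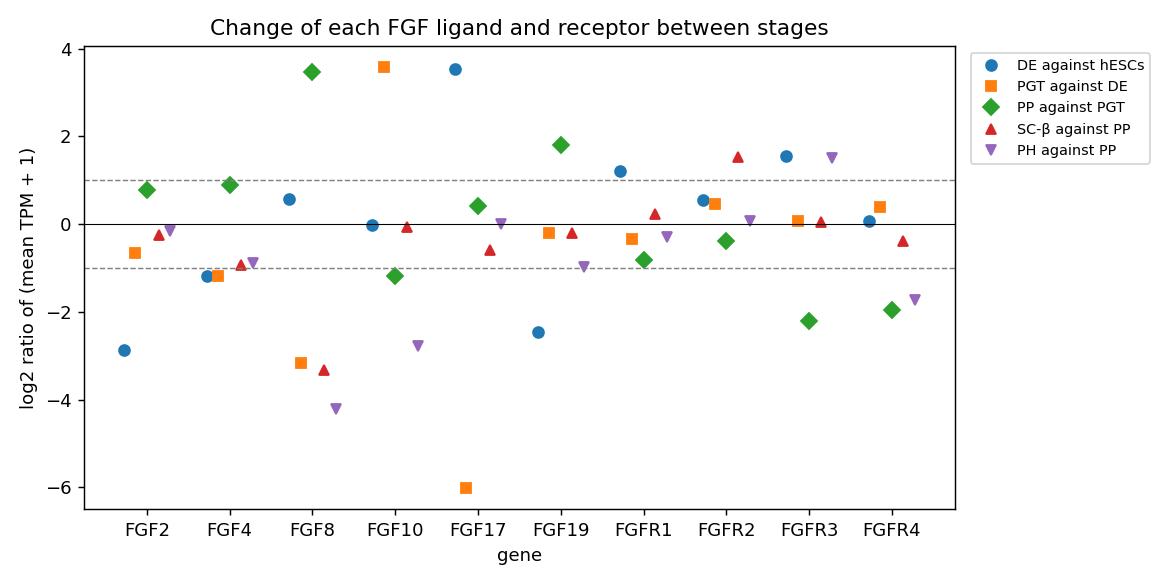
Log2 ratio of each member in the 5 comparisons of stages, with 1 TPM added to both values; 1 mark per member, and lines at 2-fold in each direction. FGF17 lies at 3.54 in DE against hESCs and at -6.02 in PGT against DE, and FGF8 at 3.47 in PP against PGT and -3.32 in SC-β against PP.

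Across the 6 stages, the highest and lowest values differed by 4-fold or more for 9 of the 10 members, and for 24.8% of all names. Without PH the count was again 9, and 18.9% of names. All 6 ligands and 3 of the 4 receptors were among them. With 1 TPM added to both values, names that are low in every stage cannot reach 4-fold. Of the 10 members, 8 reached 10 TPM in some stage, so the 2 shares are not of genes at like levels. PH was the lowest stage for 4 members (FGF8, FGF10, FGFR1 and FGFR4), and for 30.8% of all names.

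FGF feedback inhibitors and target genes, 14 in number, mark a cell's response to ERK signaling, which other growth factors also switch on. In DE against hESCs 7 were called higher and none lower, where 22.5% of names were higher and 4.43% lower, at a median log2 ratio of 1.04 against 0.44 over all names. SPRY2, a Sprouty inhibitor of receptor signaling, was at 28.8 TPM in hESCs, 76.2 at DE, 67.3 at PGT, 72.2 at PP, 10.3 at PH and 35.4 at SC-β. DUSP6, the phosphatase that inactivates ERK, was at 8.45 TPM in hESCs, 52.7 at DE, 32.9 at PGT, 54.9 at PP, 5.45 at PH and 16.2 at SC-β. Both were therefore high from DE to PP and low in PH. With stages rescaled by their median ratio the DE counts were 3 higher and 3 lower, so the direction of the list depends on the scaling.

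In PGT against DE none of the 14 was called higher and 5 were lower, where 8.56% of names were lower. Among them were SPRY4, at 99.3 TPM in DE and 34.8 in PGT, and ETV4, an ETS factor activated by FGF signaling, at 37.5 TPM in DE and 10.9 in PGT. In PP against PGT 4 were called higher (SPRY1, IL17RD, ETV1 and ETV4) and none lower, where 4.77% of names were higher, at a median of 0.31. ETV4 was then at 40.8 TPM and IL17RD, a membrane inhibitor of FGF receptors, went from 13.01 TPM in PGT to 62.0 TPM in PP. In SC-β against PP none was higher and 6 were lower, where 18.5% of names were higher and 1.63% lower, at a median of -0.93 against 0.39 over all names. At that step 9 of the 10 mesenchymal and 4 of the 6 endocrine markers were called higher and none lower. Their part in these values was not tested. In SC-β, ETV4 stood at 9.99 TPM and IL17RD at 25.9 TPM. ETV4 was thus high in hESCs (62.6 TPM), DE and PP and low in the other stages, as FGF8 was; 6 points of mean values carry no test of that likeness.

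**Figure D4:**
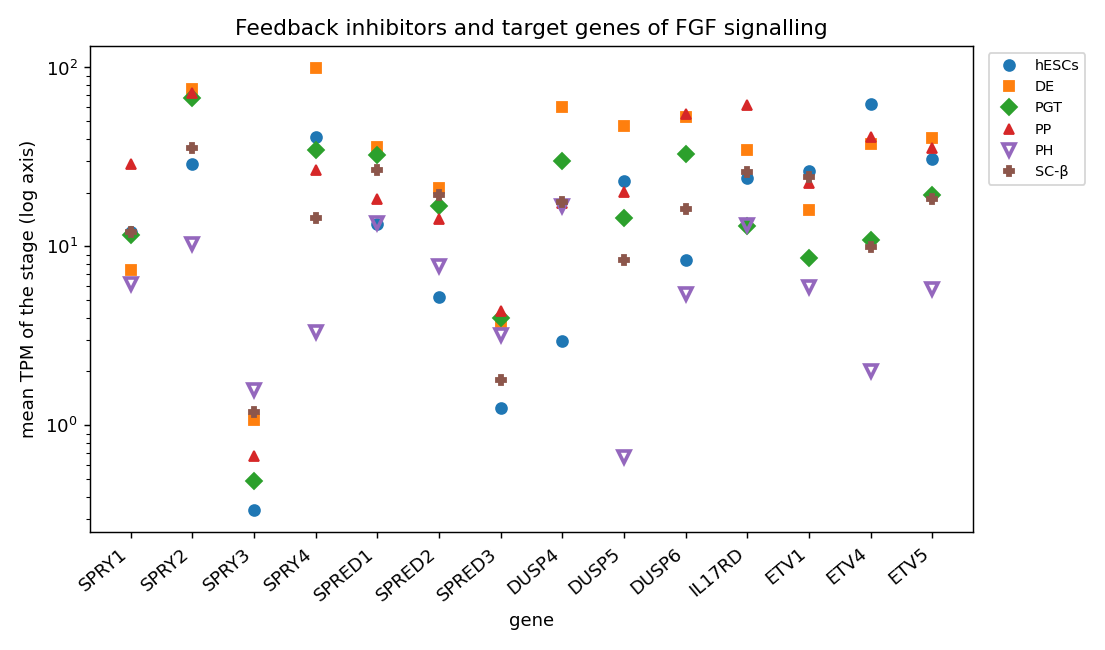
TPM of the FGF feedback inhibitors and target genes in each stage, on a log axis, 1 mark per stage and gene, each the authors' mean; open triangles mark PH. Of the 14 genes, 8 have their lowest value in PH, such as DUSP5 at 0.669 TPM and ETV4 at 2.01 TPM.

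PH was the stage where the summed level of this list was lowest. It was the lowest stage for 8 of the 14 genes and for 30.8% of all names. Against PP, 9 of the 14 were called lower and none higher, where 9.97% of names were lower and 8.94% higher, at a median of -2.11 against -0.09 over all names, and the 14 summed to 95.8 TPM in PH against 419 in PP and 232 in SC-β. SPRY4 was at 3.32 TPM in PH and 26.7 in PP. DUSP5, a nuclear ERK phosphatase, was at 0.669 TPM in PH and 20.1 in PP. ETV5 was at 5.75 TPM in PH and 35.5 in PP, whereas DUSP4 was at 16.8 in PH and 17.4 in PP. Against SC-β, a comparison added after the data were seen, 8 of the 14 were lower in PH and none higher. Of all names, 25.5% were lower and 4.19% higher. The median was -1.32 against -0.53 over all names. The receptor sum was 174 TPM in PH and 171 in PP, and the ligand sum 10.4 and 46.4. PH also had the highest summed neural markers and the highest share of structural RNA, and their part in the target gene values was not tested.

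Against SC-β, the members in PH gave 3 calls lower, FGF10 (-2.71), FGFR2 (-1.45) and FGFR4 (-1.36), and 1 higher, FGFR3 (1.45), where 25.5% of names were lower and 4.19% higher. FGFR3 was thus higher in PH than in both PP and SC-β, and FGF10 and FGFR4 lower than in both. FGF8 was lower than in PP and, at -0.90, did not reach 2-fold against SC-β.

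Of the 16 other genes of the FGF family, 11 reached 1 TPM in some stage. In DE against hESCs 1 was higher and 1 lower (22.5% and 4.43% of all names), and in PGT against DE 1 and 1 (4.00% and 8.56%). In PP against PGT 3 were higher and 2 lower (4.77% and 5.65%), in SC-β against PP 3 and 3 (18.5% and 1.63%), and in PH against PP 4 and 3 (8.94% and 9.97%). FGF9, a ligand that acts between epithelium and mesenchyme, was at 0.0322 TPM in hESCs, 0.103 at DE, 0.00742 at PGT, 17.5 at PP, 6.19 at PH and 4.79 at SC-β. PP is thus the highest stage of both FGF8 and FGF9. FGF13, which is intracellular and not secreted, was at 32.4 TPM in hESCs, 25.5 at DE, 63.5 at PGT, 24.1 at PP, 80.2 at PH and 14.03 at SC-β. FGF11 and FGF12 belong to the same intracellular group. FGF12 was at 17.1 TPM in DE and 0.399 in PH, its highest and lowest stages, and FGF11 was at 1.03 TPM in PP and 8.66 in SC-β. The cells' own FGF7 RNA, the gene for KGF, was at or below 0.137 TPM up to PP, 3.18 TPM in PH and 4.79 TPM in SC-β.

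Among the 10 co-receptors and binding proteins, FLRT3, a membrane protein that binds FGF receptors, was at 4.90 TPM in hESCs, 137 at DE, 397 at PGT, 76.9 at PP, 15.4 at PH and 70.5 at SC-β. FLRT2 was at 2.09 TPM in hESCs, 65.0 in PGT and 69.2 in SC-β. FGFRL1, a receptor without a kinase domain, was at 11.3 TPM in hESCs, 52.6 at DE, 36.7 at PGT, 19.5 at PP, 22.3 at PH and 12.5 at SC-β. FGFRL1 and FLRT3 were thus among the genes higher in DE together with FGFR1 and FGFR3. FGFBP3, a secreted FGF carrier, was at 64.9 TPM in hESCs, 11.0 at DE, 0.990 at PGT, 13.5 at PP, 5.19 at PH and 4.80 at SC-β, with hESCs the highest stage as for FGF2. ANOS1, an extracellular protein that binds FGFR1, was at 32.7 TPM in hESCs, 34.1 at DE, 2.19 at PGT, 5.96 at PP, 12.9 at PH and 20.0 at SC-β. Over the list, 3 were called higher and 2 lower in DE against hESCs, where 22.5% and 4.43% of all names were. The counts were 2 and 2 in PGT against DE (4.00% and 8.56% of names), 2 and 2 in PP against PGT (4.77% and 5.65%), 4 and 1 in SC-β against PP (18.5% and 1.63%), and none and 2 in PH against PP (8.94% and 9.97%).

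The names whose levels were most like a member's over the 6 stages were ranked by Pearson's r of log2(TPM + 1) among 12108 names at 10 TPM or more in some stage. For FGF17, the 3 closest were CTBP2P4 (0.9936), MYCT1 (0.9907) and EOMES (0.9875), the last a T-box factor of the endoderm. DUSP9, an ERK phosphatase, came first for FGF10 (0.9965), LFNG for FGFR3 (0.9632), MCC for FGFR1 (0.9981), SEC63 for FGFR2 (0.9951), UBFD1 for FGFR4 (0.9969), ATP6V1A for FGF2 (0.9940) and POLR2J for FGF8 (0.9767). With 6 points and so many names a high r is easily reached, and it carries no p. Without PH, FGF17 kept 2 of its 3 names, CTBP2P4 and MYCT1, and EOMES was no longer among them. FGF10, FGFR1, FGFR2 and FGFR4 kept 1 each, and FGF2, FGF8 and FGFR3 kept none.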

How the data were processed

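RNA-seq of H9 hESCs and their derivatives is given for 12 samples, 2 to a stage. Reads were aligned to hg38 with HISAT2 (version 2.2.0), and TPM values, computed with StringTie (version 2.1.6), were deposited by the authors as the mean of each stage's replicates. The annotation is not given in the sources used here. The table holds 50451 entries under 49085 names; 231 names with several entries were summed. Ratios were computed on log2(TPM + 1), with calls from 2-fold over the 28202 names at 1 TPM or more in at least 1 stage. With 1 mean per stage, no test, error or interval was possible, and the precision that the depth gives is unknown. Medians and counts over lists describe the values and do not replace a test. Alternatives were a pseudocount of 0.1 TPM, rescaling by the median ratio over 13938 names, totals without the 100 most abundant names, the highest entry of a repeated name, a 4-fold threshold, and hESCs as the reference of every comparison. The setting of PH against SC-β was added after the data were seen. The scripts were checked on simulated data. Python (version 3.11.15), numpy (version 2.4.6), pandas (version 2.3.3) and matplotlib (version 3.10.9) were used. Positions and exon overlaps were taken from GENCODE on GRCh38, and promoters from RefSeq (GRCh38.p14), with members on chromosome 8 left out.

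The members and the gene lists were chosen with earlier results of these data known. Named genes were all members, the 4 genes of highest mean TPM in each pathway list, genes past 4-fold in a comparison and at 10 TPM or more in the higher stage, the 3 names most like each member at 10 TPM or more, and marker genes; FGF3, FGF7, ETV1, SOS1, SOS2 and the genes that overlap a member were named outside this rule, after their values were seen, where a member's result touches them or where a count of 5 or fewer is given.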

Additional observations from a re-analysis of the deposited data

How the results depend on the processing

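No paired analysis was possible because the deposited columns are means over replicates, and for the same reason no replicate could be left out and no spread, interval or detection limit is known. Calls at a few TPM rest on the pseudocount, and the scaling of whole stages decides calls near 2-fold. Using the highest entry where a name is repeated could not change the 50 member ratios or the receptor shares, as every member has a single entry. With stages rescaled by their median ratio, 44 of 50 member ratios kept sign and side of the threshold, 5 below 2-fold changed sign, and FGFR1 in DE against hESCs fell under 2-fold (0.72).

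For the members, a pseudocount of 0.1 TPM gave 2 lower in SC-β against PP and 5 lower in PH against PP, the same counts as totals without the 100 most abundant names. The 4-fold threshold gave 1 higher in DE against hESCs, 1 higher and 1 lower in PP against PGT, 0 higher in SC-β against PP and 0 higher in PH against PP. With hESCs as the reference, the counts higher and lower were 2 and 5 in PGT, 1 and 4 in PP, 2 and 6 in SC-β and 0 and 6 in PH. FGF10 in PP was then 2.38 and FGF19 in PP -0.87, opposite in sign to their ratios against PGT (-1.19 and 1.80), as PGT and hESCs are different references.

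For the feedback inhibitors and target genes, median-ratio rescaling gave 3 higher and 3 lower in DE against hESCs in place of 7 and 0. A pseudocount of 0.1 TPM and totals without the 100 most abundant names each gave 1 higher and 9 lower in PH against PP. The 4-fold threshold gave 2 higher in DE against hESCs, 0 lower in PGT against DE, 1 higher in PP against PGT and 0 lower in SC-β against PP. With hESCs as the reference, PGT had 6 higher and 2 lower, PP 7 and 0, SC-β 2 and 3, and PH 1 and 6.

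For the 16 other FGF family genes, a pseudocount of 0.1 TPM gave 3 higher and 2 lower in DE against hESCs, 2 and 3 in PGT against DE, 6 higher in PP against PGT, 7 higher in SC-β against PP and 6 lower in PH against PP. Totals without the 100 most abundant names gave 2 lower in DE against hESCs, 6 higher in PP against PGT and 5 lower in SC-β against PP. Median-ratio rescaling gave 0 higher in DE against hESCs and 0 lower in PGT against DE. The 4-fold threshold gave 0 higher and 0 lower in DE against hESCs and in PGT against DE. It gave 1 and 0 in PP against PGT, 0 lower in SC-β against PP, and 1 and 0 in PH against PP. With hESCs as the reference PGT had 0 higher and 1 lower. Beyond the choices named, the cause of these moves was not tested.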

Other observations

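Heparan sulfate proteoglycans, which hold FGFs at the cell surface, and the enzymes that build or trim their sugar chains make up a list of 20 genes. In DE against hESCs 9 were at least 2-fold higher and 2 lower, where 22.5% and 4.43% of all names were. The counts were 4 and 3 in PGT against DE (4.00% and 8.56% of names), 3 and 1 in PP against PGT (4.77% and 5.65%), 5 and 0 in SC-β against PP (18.5% and 1.63%), and 3 and 7 in PH against PP (8.94% and 9.97%). GPC3, a glypican of fetal liver, was at 9.87 TPM in hESCs, 82.1 at DE, 273 at PGT, 125 at PP, 100.1 at PH and 418 at SC-β. GPC4 was at 293 TPM in DE and at most 48.1 TPM in any other stage, so the highest stage of GPC4 was that of FGF17. GPC2 was at 77.9 TPM in PH and 9.24 to 22.2 TPM elsewhere. SULF1, an enzyme that removes sulfate groups from the chains, was at 3.15 to 5.43 TPM in hESCs, DE and PGT, 28.0 TPM in PP, 65.2 TPM in PH and 66.5 TPM in SC-β.

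Of 18 genes of the relay inside the cell, 5 were higher and 0 lower in DE against hESCs (22.5% and 4.43% of all names). The counts were 0 and 1 in PGT against DE (4.00% and 8.56%), 0 and 0 in PP against PGT (4.77% and 5.65%), 1 and 0 in SC-β against PP (18.5% and 1.63%) and 0 and 0 in PH against PP (8.94% and 9.97%). PTPN11, the phosphatase SHP2, ranged from 31.3 TPM in PH to 82.0 TPM in hESCs, and MAP2K2, a kinase that activates ERK, from 60.3 TPM in PH to 91.6 TPM in DE. A range of 4-fold or more over the 6 stages was found for 2 of the 18 relay genes (SOS1 and SOS2). It was found for 9 of the 14 feedback inhibitors and target genes and for 9 of the 10 ligands and receptors. The share of all names was 24.8%, counted over names that include some too low to reach 4-fold. Without PH it was found for 2 relay genes, 6 feedback inhibitors and target genes, 9 ligands and receptors, and 18.9% of names.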
